A study of Mus musculus with 4 samples.

Results

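The genes described here are 35 amino acid transporters of the kidney with their accessory subunits. The list was drawn up for their function and not for their readout, though earlier results of these data were known. A probe was assigned to one of them where its RefSeq accession belonged to that gene. All 35 genes were found, with 46 of the 55668 probes analysed. A probe was retained if the 2 arrays of either group both measured it well above background, which left 42 probes. The 33 genes they stand for entered the test among 24043 features. All 33 were well above background on all 4 arrays, so none entered through 1 group alone. Slc36a2 and Slc7a2 did not pass the filter and are described separately. The collectrin gene keeps its array-era name Tmem27 here and is Cltrn in the current annotation.

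The kidneys came from mice 2 weeks after bile duct ligation (BDL), an operation that ties off the bile duct and makes bile back up into the liver and blood, or after a sham operation. Each group had 2 samples, called biological replicates by the series, and each total RNA was hybridised alone to a 1-colour array. Strain, sex, age, genotype and diet are not given in the sources used here, nor is whether a sample was 1 animal or a pool. If the samples of a group came from the same animal or the same pool, the p-values cover technical spread only.

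Amino acids filtered at the glomerulus are recovered almost entirely by the proximal tubule. Carriers of the luminal membrane draw them in with sodium, protons or in exchange for other amino acids, and exchangers and facilitative carriers of the basolateral membrane pass them on to the blood. Several work only as pairs: the heavy chain rBAT (Slc3a1) joins the light chain b0,+AT (Slc7a9) for cystine and basic amino acids at the lumen, the heavy chain 4F2hc (Slc3a2) joins y+LAT1 (Slc7a7) or LAT2 (Slc7a8) at the basolateral side, and collectrin brings the neutral carrier B0AT1 (Slc6a19) to the brush border. Inherited loss of rBAT or b0,+AT gives cystinuria, loss of y+LAT1 lysinuric protein intolerance, and loss of B0AT1 Hartnup disorder.

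Promoters are shown for both subunits of the cystine carrier and of the basolateral exchanger of basic amino acids, because 3 of these 4 genes had higher signal on both BDL arrays than on both sham arrays, and for the neighbouring genes Slc6a20a and Slc6a20b, whose values are set side by side. Each line gives the 250 bases before the start of the gene in RefSeq's annotation of GRCm38.p6, in the 5′ to 3′ direction of the gene. Of the 35 genes, 26 had an entry in the promoter table. Capitals mark a match to 1 of 2 motifs searched on both strands, TGATGNAA (the amino acid response element bound by ATF4) and CAAAGTCCA (HNF4), which do not overlap each other here.
Slc3a1, chr17:85028097-85028346, plus strand: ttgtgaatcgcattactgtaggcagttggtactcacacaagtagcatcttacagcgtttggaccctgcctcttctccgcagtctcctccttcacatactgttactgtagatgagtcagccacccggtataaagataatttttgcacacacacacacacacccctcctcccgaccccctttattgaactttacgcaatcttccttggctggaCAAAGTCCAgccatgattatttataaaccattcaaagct
Slc7a9, chr7:35448842-35449091, plus strand: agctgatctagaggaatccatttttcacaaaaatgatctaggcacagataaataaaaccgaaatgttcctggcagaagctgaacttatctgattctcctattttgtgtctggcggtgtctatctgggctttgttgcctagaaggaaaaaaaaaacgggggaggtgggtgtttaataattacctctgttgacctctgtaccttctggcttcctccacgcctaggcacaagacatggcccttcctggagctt
Slc3a2, chr19:8713898-8714147, minus strand: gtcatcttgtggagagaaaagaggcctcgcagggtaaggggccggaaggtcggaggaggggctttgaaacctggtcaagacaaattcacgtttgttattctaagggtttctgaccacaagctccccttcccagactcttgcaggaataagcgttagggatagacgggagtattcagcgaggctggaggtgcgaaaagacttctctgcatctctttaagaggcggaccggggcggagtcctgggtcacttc
Slc7a7, chr14:54417945-54418194, minus strand: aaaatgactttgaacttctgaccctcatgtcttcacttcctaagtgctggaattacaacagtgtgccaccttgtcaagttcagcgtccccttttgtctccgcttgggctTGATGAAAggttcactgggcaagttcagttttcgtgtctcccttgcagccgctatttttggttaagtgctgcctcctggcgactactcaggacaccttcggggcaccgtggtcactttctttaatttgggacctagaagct
Slc6a20a, chr9:123678833-123679082, minus strand: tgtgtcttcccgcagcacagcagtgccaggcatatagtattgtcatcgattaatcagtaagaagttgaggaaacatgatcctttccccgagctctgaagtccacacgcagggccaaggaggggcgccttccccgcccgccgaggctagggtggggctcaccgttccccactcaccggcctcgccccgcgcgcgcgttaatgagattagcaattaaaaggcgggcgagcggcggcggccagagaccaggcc
Slc6a20b, chr9:123632539-123632788, minus strand: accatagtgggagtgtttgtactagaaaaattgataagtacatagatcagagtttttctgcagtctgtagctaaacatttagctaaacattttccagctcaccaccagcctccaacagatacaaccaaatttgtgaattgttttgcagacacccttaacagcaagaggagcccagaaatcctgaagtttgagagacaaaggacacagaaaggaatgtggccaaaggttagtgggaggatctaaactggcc

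The HNF4 letters stood at -39 to -31 from the Slc3a1 start, in 1 of the 26 transporter genes (3.85%), and 0.384% of all 32851 promoters and 0.451% of all genes in the table held them. The Slc7a7 window shown, 1 of 5 annotated starts, was picked as the first with a match and held TGATGAAA at -141 to -134. Another Slc7a7 start held TGATGCAA. That motif was present in 3.45% of all promoters and 3.91% of all genes, and in 1 of the 26 transporter genes (3.85%). Slc7a9, Slc3a2, Slc6a20a and Slc6a20b held neither motif in the windows printed. The promoters of the neighbours Slc6a20a and Slc6a20b had little in common in composition, with 61.2% and 41.6% G and C and with 21 and 0 CpG dinucleotides. A match is a run of letters and no evidence of binding.

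The share of spots well above background ranged from 57.7% to 63.1% over the arrays, and 0 spots were saturated. All levels are log2 signals after subtraction of the array's own 75th percentile, and a difference is the BDL mean less the sham mean. The level of 1 gene cannot be set against that of another, because probes differ in brightness. The labelled tissue was borne out by proximal tubule markers: all 12 genes of the S1 and S2 list were measured, and their summed linear signal, in units of the 75th percentile, was 2351 and 2002 in sham and 2164 and 1959 in BDL kidneys. BDL replicate 1 stood apart in 2 marker lists, urothelium and adipose tissue. Its summed signal of the 6 urothelial genes was 57.8, against 2.69 and 8.06 in sham and 1.26 in BDL replicate 2. Its summed signal of the 2 adipocyte genes in the test was 89.5, against 11.7 and 29.5 in sham and 14.1 in BDL replicate 2. Fabp4 weighed most in that sum, with a log2 signal of 6.26, against 3.49 and 4.88 in sham and 3.82 in BDL replicate 2. No array measured Xist well above background, and the Y-linked gene Ddx3y lay between 1.52 and 1.63 on all 4. In whole tissue, fewer cells of a type and less RNA per cell cannot be told apart.

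None of the 33 transporters passed an adjusted p of 0.05 in limma, and neither did any of the 24043 features (0%). The smallest adjusted p among the transporters was 0.807. Before adjustment, 2 of the 33 transporters had p under 0.05 in limma, as did 1352 of the 24043 features. The 2 were Slc38a3 and Slc6a18, both lower in BDL. By group means 17 transporters were higher in BDL and 16 lower, with a median difference of 0.017, and the median over all features was -0.012. In 8 transporters both BDL arrays exceeded both sham arrays and in 7 they were below both, together 15 of 33. Over all features the groups did not overlap in 36.6%, with 17.3% above and 19.3% below. A difference of at least 2-fold by group means was seen in 2 transporters, Slc6a20a and Slc38a3, and in 4.65% of all features. The list as a whole was thus split evenly, with single members to either side.

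**Figure D1:**
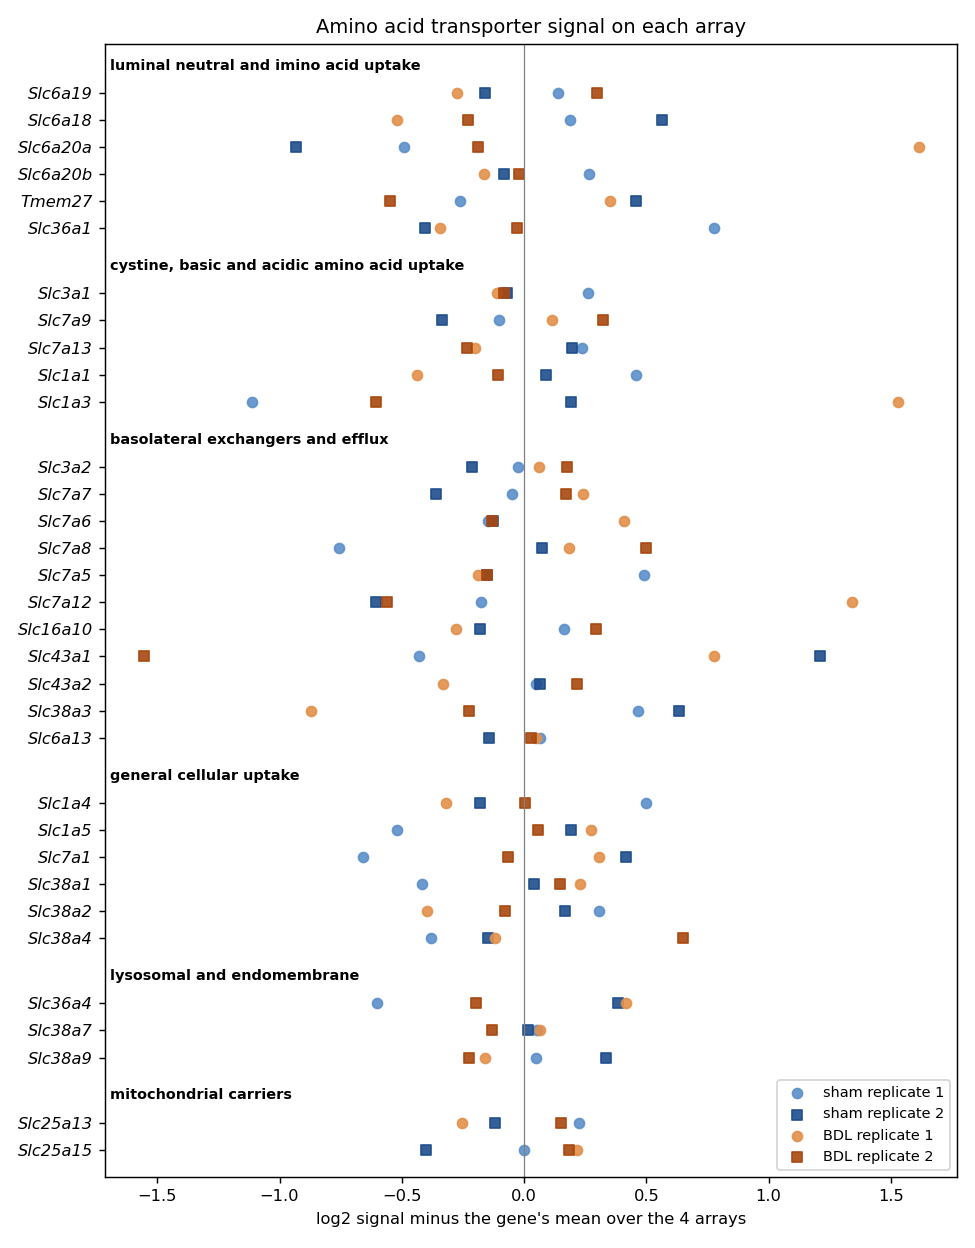
Log2 signal of the 33 transporters in the test on each array (x axis), after subtracting the gene's own mean over the 4 arrays, with genes grouped by role on the y axis. Blue points are the sham and orange points the BDL samples, with circles for replicate 1 and squares for replicate 2. Slc6a20a, Slc1a3 and Slc7a12 show BDL replicate 1 alone far to the right, while Slc7a13 shows each group's samples close together.

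The luminal carriers of neutral amino acids were represented by 7 genes, 6 of them in the test. Slc6a19, the main sodium-coupled carrier of neutral amino acids in the brush border, had signals of 4.22 and 3.92 in sham and 3.80 and 4.38 in BDL kidneys. The BDL samples enclosed the sham samples, and the difference was 0.023 (SE 0.28, adjusted p = 0.992). Its 95% interval ran from -0.73 to 0.77. Its neighbour on chromosome 13 with no coding gene between, Slc6a18, encodes B0AT3, a carrier of glycine and other neutral amino acids in the later proximal tubule. Slc6a18 gave 5.13 and 5.51 in sham and 4.42 and 4.71 in BDL kidneys. Both BDL samples were below both sham samples, a 1.68-fold lower mean (-0.75, SE 0.24, adjusted p = 0.860). The other probe of Slc6a18 did not separate the groups, with 3.67 and 3.74 in sham and 3.77 and 3.44 in BDL kidneys (-0.10), and the mean of both probes gave -0.43.

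Collectrin, which carries B0AT1 to the surface, was measured by 2 probes. Tmem27 had 7.32 and 8.04 in sham and 7.93 and 7.04 in BDL kidneys. The 2 highest values of this probe came from 1 sample of each group. The other Tmem27 probe, at 6.22 and 6.19 in sham and 5.97 and 6.17 in BDL kidneys, did not overlap but differed by only -0.14. Slc36a1 encodes PAT1, a proton-coupled carrier of small neutral amino acids. It had 1.83 in sham replicate 1, against 0.64 in sham replicate 2 and 0.71 and 1.02 in BDL kidneys. The difference of Slc36a1 was -0.37 (SE 0.45), and it was 0.22 without that sham sample. Its second probe differed by -0.23, with sham replicate 1 again the highest.

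The neighbouring imino acid carriers were measured by 1 probe each. Slc6a20a, which encodes the proline carrier of the brush border, gave 0.50 and 0.06 in sham and 2.60 and 0.80 in BDL kidneys. Both BDL samples were above both sham samples, but BDL replicate 1 lay 1.80 above the next highest array. The group means differed 2.69-fold (1.43, SE 0.64, adjusted p = 0.872), with an interval from -0.27 to 3.12, and the difference was 0.52 without BDL replicate 1 and 2.33 without BDL replicate 2. Slc6a20b, the adjacent paralog, had 4.14 and 3.80 in sham and 3.71 and 3.86 in BDL kidneys. These values overlapped, with a difference of -0.19 (SE 0.22). The coding sequences of close paralogs can share probe targets, so their separate values are uncertain.

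At the luminal step for cystine and basic amino acids, the light chain was higher and the heavy chain lower by group means, and the latter rested on sham replicate 1. Slc7a9, the transporting light chain, gave 5.11 and 4.88 in sham and 5.33 and 5.54 in BDL kidneys, with both BDL samples higher (0.44, SE 0.21, adjusted p = 0.872). Slc3a1, its heavy chain, gave 5.85 and 5.52 in sham and 5.48 and 5.50 in BDL kidneys. Here both BDL samples were lower, though by only 0.01 from sham replicate 2, and the mean difference was -0.19 (SE 0.22). It was -0.027 without sham replicate 1 and -0.36 without sham replicate 2. Quantile normalization gave -0.15, and normexp background correction with quantile normalization gave -0.12. Slc7a13 encodes AGT1, a second partner of rBAT in the S3 segment that carries acidic amino acids and cystine. Its signals were 5.78 and 5.74 in sham and 5.34 and 5.31 in BDL kidneys. The samples within a group differed by far less than the groups did, and the mean was 1.35-fold lower in BDL (-0.43, SE 0.19, adjusted p = 0.872). Leaving out any 1 array gave -0.45 to -0.41 for Slc7a13, and the SD of each group was 0.03 and 0.02.

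Among carriers of acidic amino acids, Slc1a1, which encodes the luminal glutamate and aspartate carrier EAAC1, gave 5.29 and 4.93 in sham and 4.40 and 4.73 in BDL kidneys. Both BDL samples were lower (1.46-fold, -0.54, SE 0.25, adjusted p = 0.872), and the difference was -0.36 without sham replicate 1. Slc1a3, the glutamate carrier known best from glia, had -3.68 and -2.38 in sham and -1.04 and -3.18 in BDL kidneys. Only BDL replicate 1 was high. The difference of 0.92 (SE 0.85) turned to -0.15 without that array.

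Of the 11 basolateral carriers, 7 were higher and 4 lower by group means, with a median difference of 0.077. Slc7a7, the light chain that returns basic amino acids to the blood, gave 7.005 and 6.69 in sham and 7.29 and 7.22 in BDL kidneys. Slc3a2, the heavy chain, gave 5.73 and 5.54 in sham and 5.81 and 5.93 in BDL kidneys. For both genes each BDL sample was above each sham sample, by 0.41 on average for Slc7a7 (SE 0.21, adjusted p = 0.872) and 0.24 for Slc3a2 (SE 0.20, adjusted p = 0.888). Without sham replicate 2, the lowest sample of both, these differences were 0.25 and 0.14. That of Slc3a2 was 0.30 with quantile normalization and 0.36 with normexp and quantile normalization together. Slc7a8, the LAT2 exchanger of neutral amino acids, had 1.65 and 2.49 in sham and 2.60 and 2.91 in BDL kidneys. The groups did not overlap, but sham replicate 1 was low (0.68, SE 0.35, adjusted p = 0.872), and the difference was 0.27 without it and 1.101 without sham replicate 2. Slc7a6, the broader isoform y+LAT2, had -3.99 and -3.97 in sham and -3.43 and -3.98 in BDL kidneys, with BDL replicate 1 alone higher.

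Slc38a3 had the smallest p of the 33 transporters. It encodes SNAT3, the basolateral glutamine carrier that supplies ammonia formation in the proximal tubule. The signals were 1.74 and 1.91 in sham and 0.40 and 1.05 in BDL kidneys. Both BDL samples lay below both sham samples, and the mean was 2.14-fold lower (-1.10, SE 0.29, adjusted p = 0.807), with an interval from -1.86 to -0.33. Leaving out any 1 array gave -1.42 to -0.77. A single probe measured this gene.

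The remaining basolateral carriers did not separate the groups. Slc16a10, the aromatic amino acid carrier TAT1, had 0.96 and 0.62 in sham and 0.52 and 1.09 in BDL kidneys (0.017, SE 0.29). Its other probe, of another transcript accession, gave -2.53 and -2.50 in sham and -2.08 and -2.25 in BDL kidneys, a difference of 0.35 without overlap (SE 0.20, adjusted p = 0.868 over all retained probes). Slc43a2, the uniporter LAT4, had 3.29 and 3.30 in sham and 2.91 and 3.46 in BDL kidneys. Slc6a13, the basolateral GABA and taurine carrier GAT2, had 4.19 and 3.98 in sham and 4.17 and 4.15 in BDL kidneys, and its difference of 0.08 (SE 0.20) had an interval from -0.45 to 0.60. Slc43a1, the uniporter LAT3, varied most within the groups, with -3.45 and -1.81 in sham and -2.24 and -4.57 in BDL kidneys.

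Slc7a5 and Slc7a12 depended on the probe or the array. Slc7a5, the LAT1 exchanger of large neutral amino acids, had -1.09 in sham replicate 1 and -1.73, -1.77 and -1.73 in sham replicate 2 and the BDL kidneys (-0.34, SE 0.28). Its second probe was lowest in that same sham sample, at -3.95 against -2.08, -2.15 and -2.46, and differed by 0.71. Slc7a5 was the 1 gene of 8 with several retained probes whose probes differed in sign. Slc7a12, a light chain of the same family with female-biased expression in mouse kidney, had -2.83 and -3.26 in sham and -1.32 and -3.22 in BDL kidneys. Only BDL replicate 1 was high, and the difference of 0.78 (SE 0.67) turned to -0.17 without it.

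**Figure D2:**
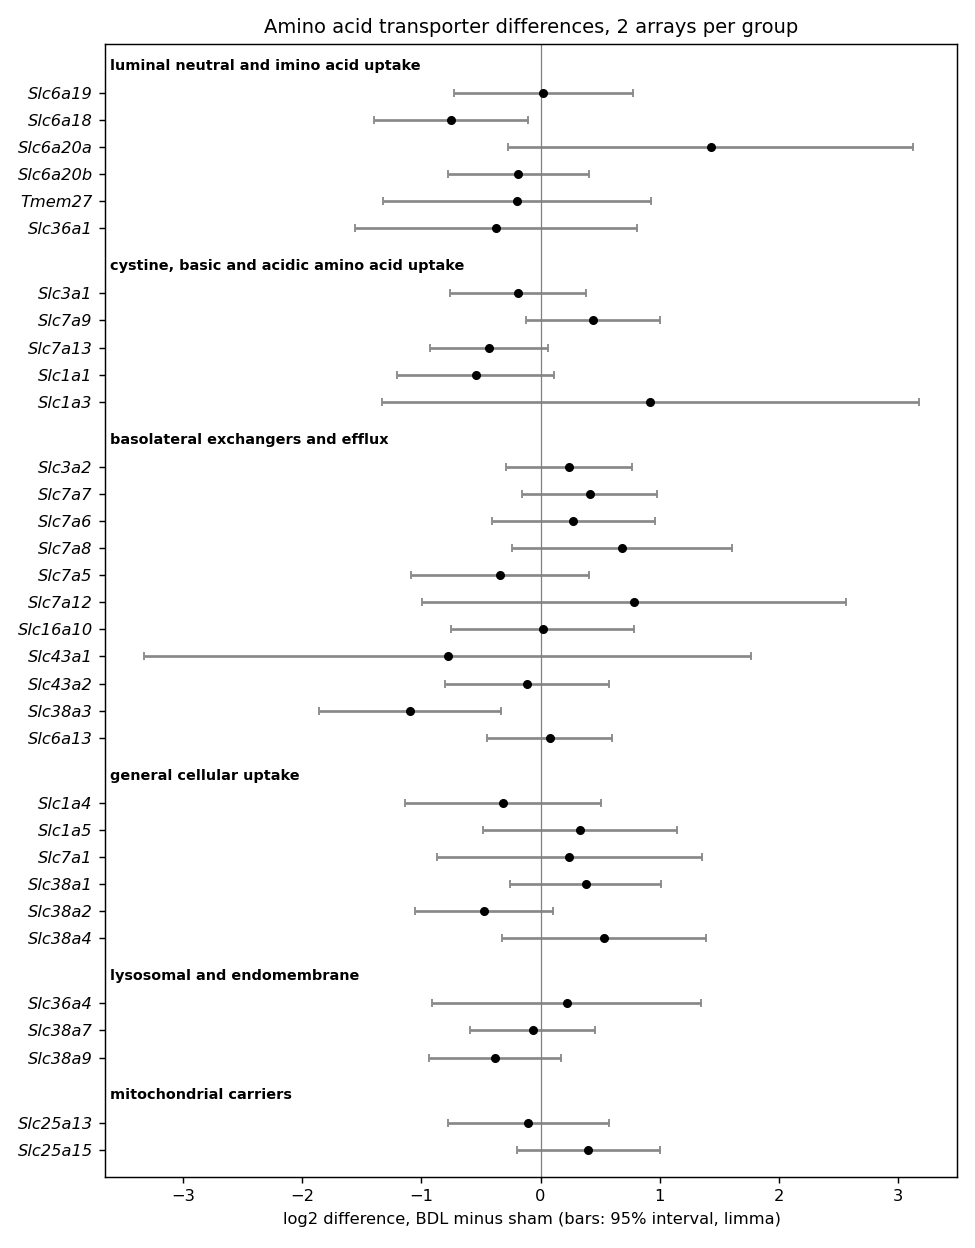
Difference between BDL and sham kidneys for each transporter in the test (x axis, log2) with its 95% interval from limma, 2 arrays per group, and genes grouped by role on the y axis. The intervals of Slc38a3 and Slc6a18 lie below 0 before adjustment, while the other 31 include 0.

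Carriers that most cells use for their own supply were measured in 6 of 7 cases, 4 higher and 2 lower by group means. Slc38a2, the amino-acid-responsive glutamine and alanine carrier SNAT2, gave 2.66 and 2.52 in sham and 1.96 and 2.28 in BDL kidneys. Both BDL samples were lower (1.39-fold, -0.47, SE 0.22, adjusted p = 0.872), and the difference was -0.31 without BDL replicate 1. Slc38a1, its neighbour on chromosome 15 and the carrier SNAT1, went the other way, with -0.59 and -0.14 in sham and 0.05 and -0.03 in BDL kidneys (0.38, SE 0.24, adjusted p = 0.872). The difference was 0.15 without sham replicate 1 and 0.61 without sham replicate 2. A dimmer probe of Slc38a1 had the same sign (0.73), and another probe stayed near background on all 4 arrays. The authors' deposited table gave 0.73 for the gene, which matches the dimmer probe and is not a separate measurement. Slc38a4, adjacent on the other side of Slc38a2, had -3.88 and -3.65 in sham and -3.62 and -2.86 in BDL kidneys. The groups were separated by only 0.03 (0.53, SE 0.32). The difference was 0.15 without BDL replicate 2 and 0.91 without BDL replicate 1. It was 0.55 with quantile normalization and 0.32 with normexp and quantile normalization together.

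The cationic carrier CAT1 and the neutral exchangers overlapped between the groups. Slc7a1, which encodes CAT1, had 0.24 in sham replicate 1 and between 0.83 and 1.32 on the other 3 arrays. Slc1a5, the glutamine exchanger ASCT2, had 1.25 and 1.96 in sham and 2.04 and 1.83 in BDL kidneys (0.33, SE 0.31). Its second probe had -0.97 and -0.17 in sham and 0.20 and 0.00 in BDL kidneys, without overlap (0.67, SE 0.33). Slc1a4, the related ASCT1, had 2.42 and 1.74 in sham and 1.60 and 1.92 in BDL kidneys. Sham replicate 1 was thus the lowest array for Slc7a1, Slc1a5, Slc38a1 and Slc38a4 and the highest for Slc1a4 and Slc38a2. Slc7a2, which encodes CAT2, was measured well above background on none of the 4 arrays.

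Of the 5 intracellular carriers, Slc38a9 and Slc25a15 did not overlap between the groups. Slc38a9, the lysosomal arginine sensor and carrier upstream of mTORC1, gave 0.35 and 0.64 in sham and 0.14 and 0.08 in BDL kidneys, with both BDL samples lower (-0.38, SE 0.21, adjusted p = 0.872), and the difference was -0.24 without sham replicate 2. Its other 2 probes had the same sign, at -0.25 and -0.10, and the mean of all 3 gave -0.24. Slc38a7, a lysosomal glutamine carrier, lay between -0.16 and 0.04 on all arrays, and its interval ran from -0.59 to 0.46. Slc36a4 had -3.05 and -2.07 in sham and -2.04 and -2.65 in BDL kidneys. In mitochondria, Slc25a15, the ornithine carrier of the urea cycle, gave -0.20 and -0.60 in sham and 0.02 and -0.01 in BDL kidneys, with both BDL samples higher (0.40, SE 0.23, adjusted p = 0.872), and the difference was 0.20 without sham replicate 2. Slc25a13, the aspartate and glutamate carrier citrin, had 4.37 and 4.03 in sham and 3.90 and 4.30 in BDL kidneys (-0.10, SE 0.26).

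Slc36a2 was present on 1 array only. It encodes PAT2, a proton-coupled carrier of glycine and proline that is also known as a surface marker of brown adipocytes. The signal was -4.76 and -6.06 in sham kidneys and -5.93 in BDL replicate 2, none of them well above background, and 0.51 in BDL replicate 1. Measured on 1 of the 2 BDL arrays, the BDL mean was 4.71-fold higher than sham, with BDL replicate 2 entered at its own signal. Each sham array was entered at the higher of the probe's signal and the lowest signal well above background. The fold rests on BDL replicate 1 and is not a lower bound, since BDL replicate 2 was not well above background either. Its neighbour on chromosome 11, Slc36a1, had 0.71 on that array, within the range of the others.

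The same array was high in adipocyte and urothelial markers. Adipoq had 3.10 on BDL replicate 1, against -1.59 and -6.21 in sham and -7.34 in BDL replicate 2. Cidec, a lipid droplet gene, had 3.66, against -1.12 and -3.29 in sham and -7.29 in BDL replicate 2, and Plin1 had 1.03, against -3.30 and -5.30 in sham and -5.78 in BDL replicate 2. Of the brown fat genes, looked up after these values were seen, Ucp1 stood at 0.42 on that array and between -7.26 and -4.62 on the others, and Cidea at 4.64 and between -4.52 and -2.15, while no array measured Elovl3 well above background. BDL replicate 1 was the highest of the 4 arrays in all 5 adipocyte and all 6 urothelial genes. Slc6a20a, Slc1a3 and Slc7a12 were the 3 of 33 transporters at least 2-fold above all other arrays on BDL replicate 1, as were 1.26% of all features. The part of these tissues in the 4 transporters' signals was not tested.

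**Figure D3:**
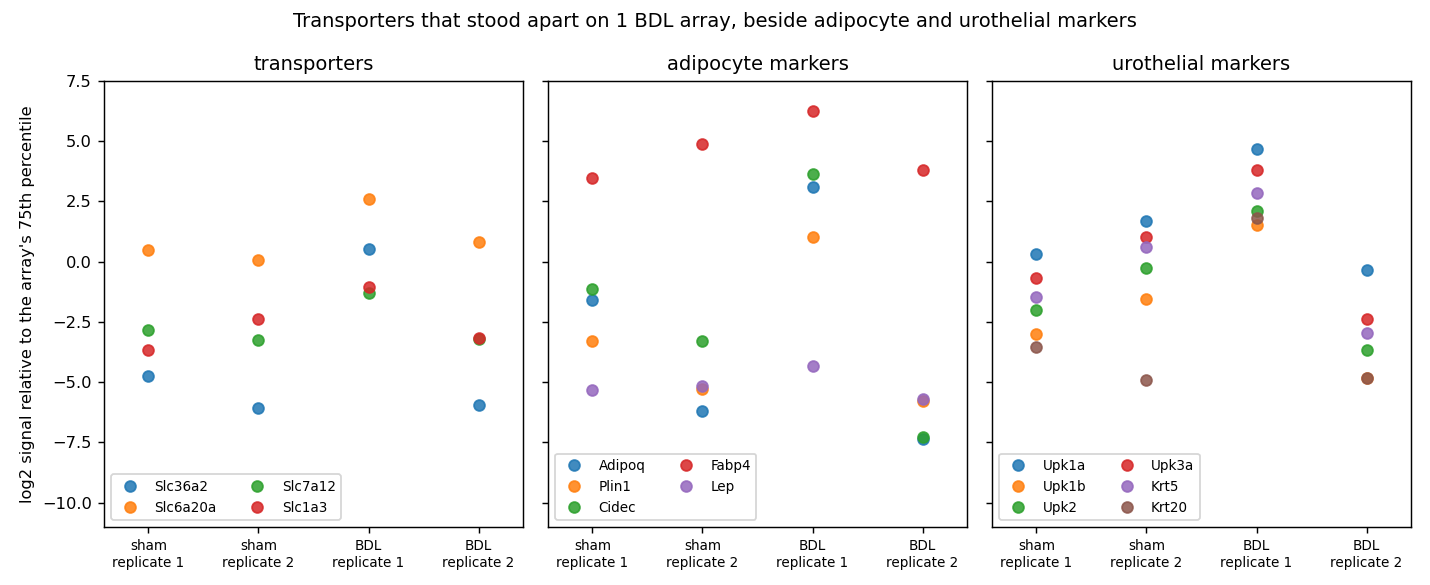
Log2 signal relative to the array's 75th percentile (y axis) on each of the 4 arrays (x axis) for 4 transporters, 5 adipocyte markers and 6 urothelial markers, 1 point per gene and array. In all 3 panels BDL replicate 1 carries the highest point of every gene, from -4.34 for Lep to 6.26 for Fabp4.

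Beyond these genes, 27 of 35 further amino acid carriers were measured, 10 higher and 17 lower by group means with 0 past the threshold in either direction, and their median difference was -0.10. Ctns, the lysosomal cystine exporter cystinosin, gave 1.04 and 0.65 in sham and 2.44 and 2.28 in BDL kidneys (1.51, SE 0.23, adjusted p = 0.590). Both BDL samples were well apart from both sham samples. Slc6a8, the creatine carrier, gave 5.65 and 5.57 in sham and 6.11 and 6.13 in BDL kidneys (0.51, SE 0.19, adjusted p = 0.872). Slc38a5, the glutamine carrier SNAT5, was mostly a signal of BDL replicate 1, at -1.28 there, -4.76 in BDL replicate 2 and -6.86 and -6.00 in sham kidneys, where it was not well above background. Slc7a10, a carrier known from white adipocytes, was well above background on BDL replicate 1 alone.

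Peptide carriers and brush-border peptidases, which split filtered peptides into amino acids, had 6 genes higher and 12 lower of 18 measured, with a median of -0.15 and 0 past the threshold. Mep1b, the meprin beta subunit, gave 5.98 and 6.62 in sham and 5.21 and 5.13 in BDL kidneys (-1.13, SE 0.28, adjusted p = 0.773). Cndp2, a cytosolic dipeptidase, had 7.82 and 7.30 in sham and 6.76 and 6.61 in BDL kidneys, and Ace 2.95 and 2.91 in sham and 2.22 and 2.39 in BDL kidneys. All 3 were lower on both BDL arrays. Enzymes of renal amino acid metabolism were split, 23 higher and 20 lower of 43 measured, with a median of 0.07 and 0 past the threshold. Gldc, of the glycine cleavage system, gave 3.81 and 2.88 in sham and 5.43 and 4.94 in BDL kidneys (1.84, SE 0.39, adjusted p = 0.753). Bcat1, a branched-chain aminotransferase, gave 2.80 and 3.08 in sham and 0.45 and 1.86 in BDL kidneys (-1.79, SE 0.51, adjusted p = 0.860). Prodh2, hydroxyproline dehydrogenase, was higher by 0.68 (SE 0.21).

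ATF4, a factor induced by amino acid shortage, is known to act on transporter genes such as Slc38a2. Its response genes had 16 higher and 6 lower of 22 measured, with a median of 0.19 and 0 past the threshold. Both BDL arrays exceeded both sham arrays in 4 of the 22, and in 17.3% of all features. Relative to each gene's mean over the 4 arrays, the list's median was 0.19 on BDL replicate 1 and 0.03 on BDL replicate 2. Mthfd2, a mitochondrial folate enzyme, gave -3.30 and -3.52 in sham and -2.17 and -2.52 in BDL kidneys (1.06, SE 0.23, adjusted p = 0.759). Stc2 differed by 1.17 (SE 0.32) and Nupr1 by 1.30 (SE 0.52), each without overlap. Of 18 transcription factors and transporter regulators, 10 were higher and 8 lower, with 0 past the threshold. Hnf4g differed by 0.57 (SE 0.24) and Sgk1, a kinase that raises many carriers at the surface, by 0.83 (SE 0.24).

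**Figure D4:**
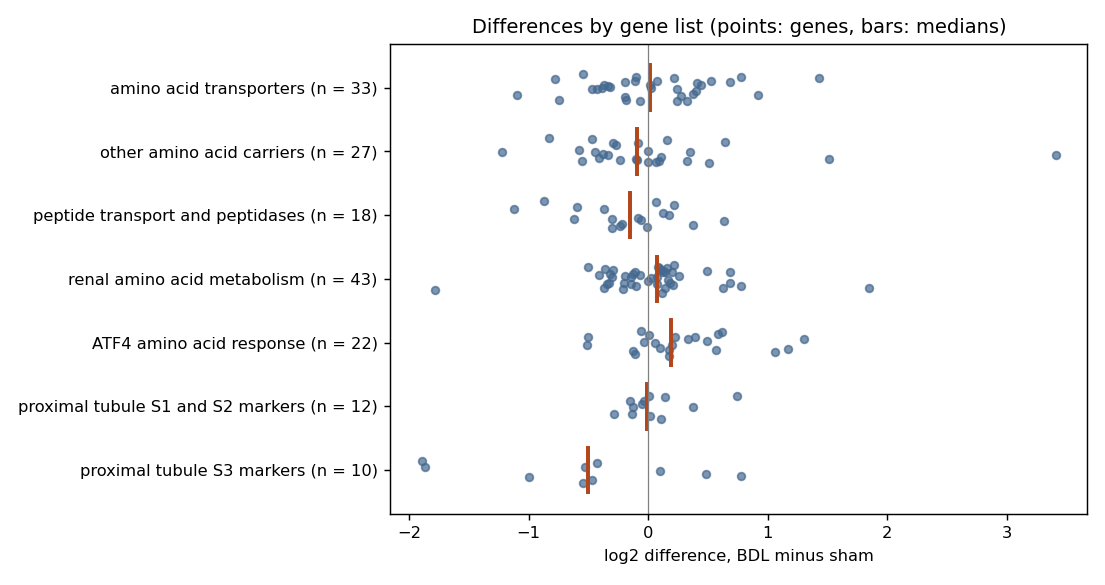
Log2 difference between BDL and sham kidneys (x axis) for each measured gene of 7 lists (y axis), with a vertical bar at each list's median. The transporters centre on 0.017 and the S1 and S2 markers on -0.014, while the S3 markers centre on -0.50.

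Markers of the proximal tubule segments lay beside these values. The S1 and S2 list had 6 genes higher and 6 lower, with a median of -0.014 and 0 past the threshold. Slc5a12, a lactate carrier, and Cubn were its 2 genes without overlap, higher by 0.75 (SE 0.19) and 0.37 (SE 0.19). In the S3 list 7 of 10 measured genes were lower on both BDL arrays than on both sham arrays, as were 19.3% of all features. Its median was -0.50, with 0 past the threshold. Slc7a13 and Slc7a12 belong to that list and are not separate from it. Cyp7b1 gave 5.72 and 5.68 in sham and 3.22 and 4.40 in BDL kidneys, Slc22a7 differed by -1.86 (SE 0.54) and Slc22a19 by -0.999 (SE 0.22). Not all S3 genes were lower, since Slc5a1, the high-affinity glucose carrier, was higher on both BDL arrays and Cyp2e1 overlapped. Male-biased kidney genes, which also include Slc7a13, were lower in 9 of 12 measured with a median of -0.34. The lowest difference was -1.89 in both this list and the S3 list, and the 2 lists are not separate. Female-biased genes, which include Slc7a12, were higher in 6 of 9, and both sex-biased lists had 0 past the threshold. The summed S3 signal was 959.6 and 773 in sham and 565.6 and 685 in BDL kidneys. By group means, all 12 tubular injury genes were higher in BDL, with a median of 0.94. So were all 7 podocyte, all 7 distal convoluted tubule, all 7 intercalated cell and all 5 erythroid genes measured. Of all 24043 features, 11667 were higher and 12376 lower by group means. The largest difference was 2.73 in both the injury list and the urothelial list, so these lists may not be separate. Relative to each gene's mean over the 4 arrays, the injury median was 0.81 on BDL replicate 1 and 0.15 on BDL replicate 2. For the erythroid genes these medians were 1.21 and 0.08. All 7 thick ascending limb genes were lower by group means, with differences from -0.72 to -0.002, and only 2 of the 7 without overlap. All 3 B cell genes were lower, and 0 genes of these lists passed the threshold. The summed macrophage signal was 259.1 in sham replicate 1 and between 50.5 and 60.4 on the other arrays. Cd74 weighed most in that sum, at 7.72 in sham replicate 1 and between 4.17 and 4.37 on the others. The median macrophage gene lay 0.71 above its own mean over the 4 arrays in sham replicate 1. The part of segment and cell make-up in the signals of Slc7a13, Slc6a18, Slc1a1 and Slc38a3 was not tested.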

How the data were processed

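Kidney RNA of 4 mouse samples, 2 sham and 2 BDL, grouped by their titles, was hybridised to Agilent arrays. The submitters' processing notes name Feature Extraction 11.0.1.1. The deposited processed signal is an intensity, which per the file headers had its background subtracted and its spatial trend removed, and the deposited spot and background medians are raw intensities. Flagged and control spots were left out and spots of a probe averaged on the log2 scale. Accessions were matched without versions to a RefSeq table of GRCm38.p6, used for names and neighbours only, since the array grid lists mm9 (27229 of 55668 probes named). Of several retained probes of a gene, the one with the highest mean was used. The groups were fitted with lmFit and eBayes (limma 3.58.1, R 4.3.3), with the operation as sole term and two-sided p-values adjusted by Benjamini-Hochberg over 24043 features. Alternatives covered scaling, background, filter, probe choice, array weights, the replicate block, the authors' deposited table (the same intensity divided by 1 constant per array) and leaving out each array. The normexp alternative used the spot and background medians and was also quantile normalized, so it changed more than the background. The fit was tested on simulated data. An exact permutation test of 2 against 2 cannot go below p = 0.333. The arrays shared 1 slide and 1 scan time. The number of arrays limits the precision. Transporters and gene lists were chosen with earlier results of these data known. All transporters are named, and of each other gene list described in full up to 3 genes with the smallest p. Genes named outside this rule, namely Slc7a10, Slc5a1, Cyp2e1, Xist, Cd74, Adipoq, Plin1, Lep and the brown fat genes, were chosen after their values were seen. Results of a regulator and of a motif are not reported here.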

Additional observations from a re-analysis of the deposited data

How the results depend on the processing

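The count of 0 transporters and of 0 features past the threshold held in limma under quantile normalization, normexp background correction, median scaling, other filters on dim probes, the mean of a gene's probes, array weights, the authors' deposited table, the replicate block and the loss of any 1 array. At an unadjusted p under 0.05 the features numbered 846 without BDL replicate 1 and 2793 without sham replicate 2, against 1352 with all arrays. The replicate block, with the number of the labels as a second term, called 0 transporters and 0 features, with 1448 features at an unadjusted p under 0.05. The numbers are not known to pair the samples, and deviations of same-numbered samples correlated at 0.06 across features. The authors' deposited table held 30 of the 33 genes.

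Of the 33 transporters, 17 kept their sign under all alternatives run and 31 under all that kept the 4 arrays. The 2 exceptions were Slc7a5 (0.19 with the mean of its probes) and Slc16a10 (-0.021 with normexp and quantile normalization, 0.019 with quantile normalization alone). For each of these the cause was not tested, beyond the opposite signs of the Slc7a5 probes. The other filters, array weights and the replicate block left every transporter's difference as it was, so they could not turn a sign. The mean of a gene's probes can change only genes with several retained probes, and the deposited table holds the same intensities. The count of 31 is thus largely fixed by these settings. Leaving out 1 array turned the sign of 15 genes, with ranges from -0.26 to 0.31 for Slc6a19, -0.65 to 0.25 for Tmem27, -0.96 to 0.22 for Slc36a1, -0.15 to 1.99 for Slc1a3, -0.17 to 1.73 for Slc7a12, -0.27 to 0.30 for Slc16a10, -1.94 to 0.39 for Slc43a1, -0.39 to 0.16 for Slc43a2, -0.026 to 0.18 for Slc6a13, -0.66 to 0.022 for Slc1a4, -0.027 to 0.68 for Slc1a5, -0.30 to 0.78 for Slc7a1, -0.27 to 0.71 for Slc36a4, -0.17 to 0.033 for Slc38a7 and -0.31 to 0.10 for Slc25a13. For the 15 transporters whose groups did not overlap, leaving out 1 array cannot turn the sign. Signal over background limits Slc36a2 and Slc7a2.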
